A study of Mus musculus with 4 samples.

Results

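Interferon-stimulated genes were followed in progenitor cells of mouse subcutaneous tissue that had lost Gnas, the gene of the stimulatory G protein alpha subunit. The members were a list of 33 known interferon-stimulated genes, matched by symbol to the amplicon names of the deposited table. Of these, 31 were found among 23930 amplicons. Isg15 and Ifit3 were not analysed here.

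The mutant cells carried the genotype Gnas-/- and were infected with Ad-Cre, an adenovirus that delivers Cre recombinase. The wild-type cells were infected with Ad-GFP, an adenovirus that delivers green fluorescent protein. Both groups were primary cells of C57BL/6 background with floxed Gnas, and after infection all were kept in osteogenic medium for 7 days. Each group had 2 libraries, called Gnas-/- 1, Gnas-/- 2, wild type 1 and wild type 2. Whether the 2 libraries of a group stem from different animals or cultures is not in the labels. Every p-value therefore reflects spread between libraries, which need not be spread between animals. The wild-type libraries differed widely in Xist and in macrophage markers, with values given below. An adenovirus was used in every culture, and no uninfected cells were measured. The groups differ in both the virus and the loss of Gnas, which cannot be told apart here.

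Values are RPM, the reads of 1 short amplicon per gene relative to the library total, from libraries of 17460018 and 14847959 reads in the Gnas-/- group and 18455811 and 13483518 reads in the wild-type group. Where no read was seen, up to 3 reads remain possible (0.163 to 0.222 RPM, for counting error only). No row was named Gnas, so the deletion was not checked by its own transcript. All 11 measured stromal markers, among them Pdgfra, Col1a1 and Thy1, were read in every library, and by limma 1 rose (Dpt), 0 fell and 10 did not pass. The 11 summed to 32090 and 35170 RPM in the Gnas-/- libraries, against 14590 RPM in wild type 1 and 19050 RPM in wild type 2. Their median log2 fold change was 0.80, against 0.08 over all tested genes. Dpt, which encodes the matrix protein dermatopontin, stood at 666 and 430 RPM in the Gnas-/- libraries, against 19.0 and 58.1 RPM in the wild-type libraries (log2 fold change 3.96, limma adjusted p = 0.0389). Cd34 stood at 8.42 and 12.6 RPM in the Gnas-/- libraries, against 1 read in wild type 1 and 7.19 RPM in wild type 2. Pdgfrb stood at 598 and 564 RPM in the Gnas-/- libraries, against 824 RPM in wild type 1 and 355 RPM in wild type 2. The 18 macrophage markers summed to 33.8 and 20.7 RPM in the Gnas-/- libraries, against 53.0 RPM in wild type 1 and 1085 RPM in wild type 2. The female-specific RNA Xist stood at 395 and 419 RPM in the Gnas-/- libraries, 165 RPM in wild type 1 and 0 in wild type 2. The Y-linked Ddx3y was read in all 4. Xist and the Y-linked genes, 5 in all, summed to 447 and 454 RPM in the Gnas-/- libraries, 289 RPM in wild type 1 and 212 RPM in wild type 2. The Y-linked part of this sum was smaller in both Gnas-/- libraries than in either wild-type library. The median log2 fold change of the 5 genes was -1.495, and 0 passed by limma. The part of these differences in the results was not tested.

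Interferons are secreted proteins that bind receptors on the cell surface. The receptor-bound kinases JAK1 and TYK2 phosphorylate STAT2, which joins IRF9 in a complex that enters the nucleus. There it binds the interferon-stimulated response element in promoters and switches on genes whose products detect, tag or block viruses. Fibroblast-like stromal cells keep a low tonic expression of these genes and raise it strongly when they sense viral nucleic acid.

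The response element can be seen in the promoters of several members. The sequences below come from RefSeq windows on GRCm38.p6 that reach from 250 bases before to 50 bases after a gene's start, and they are shown because they carry the binding letters of the factors that define the list. Capitals mark the match to GAAANNGAAA for the first 5 genes, read on either strand, and to TTCNNNGAA, the palindromic core bound by STAT dimers, for Irf1 and Plscr1. Each is written 5′ to 3′ on the strand of its gene. The RefSeq start used for Plscr1 lies downstream of the start of the GENCODE gene given further on.
Ifit1 (chr19:34640770-34640828, plus strand): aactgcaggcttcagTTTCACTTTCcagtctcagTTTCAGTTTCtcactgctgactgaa
Stat2 (chr10:128270261-128270300, plus strand): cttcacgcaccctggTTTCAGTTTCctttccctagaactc
Bst2 (chr8:71537572-71537617, minus strand): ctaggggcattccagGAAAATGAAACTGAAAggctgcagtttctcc
Rsad2 (chr12:26456548-26456587, minus strand): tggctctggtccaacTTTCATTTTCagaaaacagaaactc
Cxcl10 (chr5:92349078-92349117, minus strand): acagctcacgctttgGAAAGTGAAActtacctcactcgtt
Irf1 (chr11:53769909-53769947, plus strand): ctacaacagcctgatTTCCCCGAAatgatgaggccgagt
Plscr1 (chr9:92250089-92250127, plus strand): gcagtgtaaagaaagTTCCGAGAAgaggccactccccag

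A promoter window was matched for 21 of the 31 measured members. GAAANNGAAA on either strand was found for 10 of these 21 (47.6%), against 3.99% of 27025 genes with a window. In 7 of the 10 a match lay wholly before the start, as in Ifit1, where 2 matches begin 104 and 85 bases before it. In Bst2 the 2 matches overlap each other, and the first of them also overlaps a match to TTCNNNGAA. TTCNNNGAA was found for 7 of the 21 members (33.3%), against 9.55% of all genes. A match describes these letters only and is not a measurement of binding.

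Wild type 1 had the higher level of most members, wild type 2 the lower one, and the Gnas-/- cells lay between them for about as many members as not. Summed over the 31 members, RPM was 719 and 798 in the Gnas-/- libraries, 1565 in wild type 1 and 597 in wild type 2. Testing required 1 RPM or more in 2 or more libraries, which kept 29 of the 31 members and 11638 genes in all. Wild type 1 exceeded wild type 2 for 27 of the 29 tested members, against 57.8% of all tested genes. The difference was over 2-fold, on the log2(RPM + 1) scale used for all differences below, for 16 of the 29 members (10.5% of all genes), and no member was over 2-fold lower in wild type 1 (7.64% of all genes). The median of wild type 1 minus wild type 2 was 1.02 over the members and 0.12 over all tested genes. No member differed over 2-fold between the Gnas-/- libraries (2.99% of all genes). This comparison of single wild-type libraries has no replicates and no test.

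**Figure D1:**
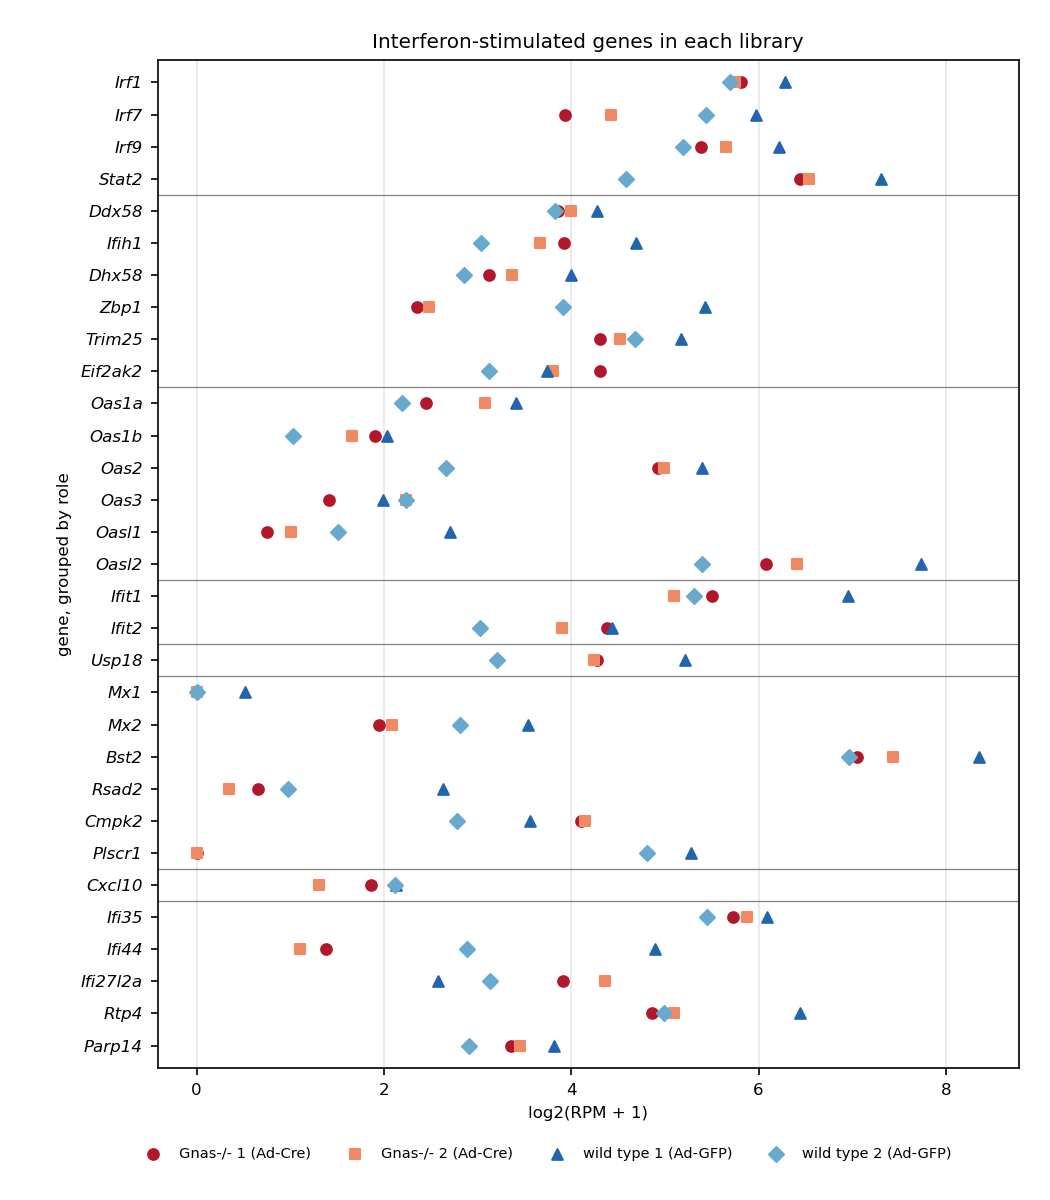
Level of each of the 31 measured interferon-stimulated genes as log2(RPM + 1), with 1 symbol per library and genes grouped by role from transcription factors at the top to other induced proteins at the bottom. Both Gnas-/- symbols lie between the wild-type symbols for 16 of 31 genes, and wild type 1 is the rightmost symbol for most.

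**Figure D2:**
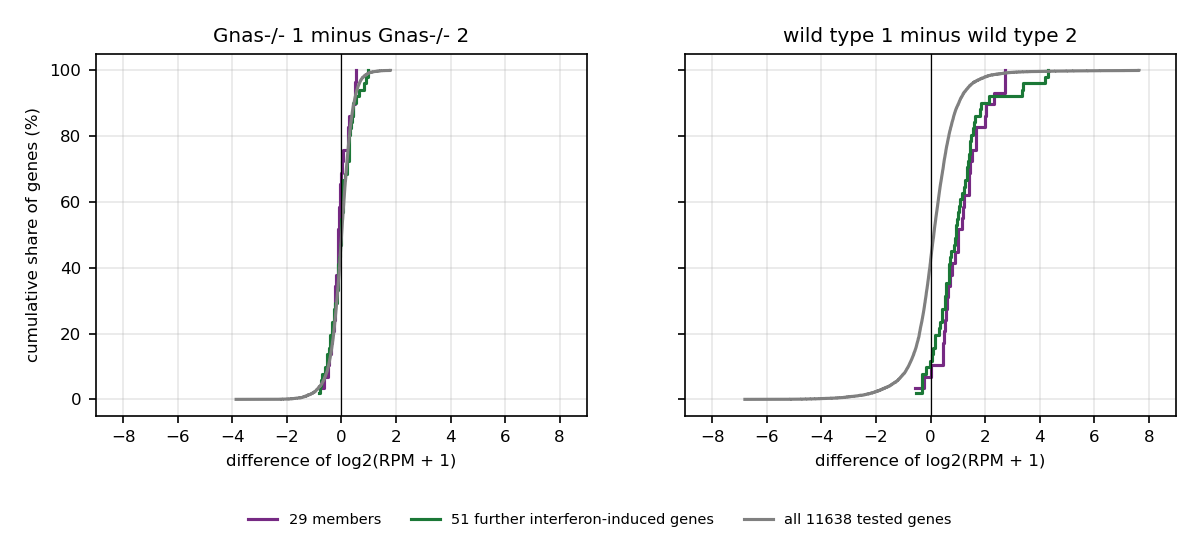
Cumulative share of genes (%) against the difference of log2(RPM + 1) between the libraries of a group, for 29 members, 51 further interferon-induced genes and 11638 tested genes. The 3 curves run close together between the Gnas-/- libraries, while between the wild-type libraries both interferon curves lie to the right of the curve of all genes, with medians of 1.02 and 0.92 against 0.12.

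In the comparison of both Gnas-/- libraries with both wild-type libraries, 0 of 29 tested members rose and 1 fell, which was Plscr1 (limma on log2(RPM + 1), Benjamini-Hochberg adjusted over 11638 genes). Over all tested genes 1.73% were called higher and 0.576% lower. At an unadjusted p below 0.05, 2 members were higher and 5 lower by limma, beside 11.9% and 6.01% of all genes. Counts of whole reads gave 0 higher and 1 lower member by edgeR, and 0 higher and 4 lower by DESeq2 (Plscr1, Irf7, Zbp1 and Ifi44). Over all genes edgeR called 0.567% higher and 0.232% lower, and DESeq2 5.14% and 4.24%. The median log2 fold change of the 29 members was -0.19, and that of all tested genes was 0.08. Without Gnas-/- 1 or without Gnas-/- 2, limma called no gene in the whole table, Plscr1 included.

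The sign of the difference depended on which wild-type library was used. Against wild type 1 alone, 1 of 28 tested members was called higher and 11 were called lower, beside 10.4% and 7.51% of all genes. Against wild type 2 alone, 6 of 28 were called higher and 3 lower, beside 15.2% and 7.23% of all genes. The median difference of the 29 members was -0.75 from wild type 1 and 0.32 from wild type 2, with 0.02 and 0.14 over all genes. In these fits of 3 libraries the lone wild-type library is assumed to vary like the Gnas-/- pair, so the calls rest on the small spread of that pair. Stat2, Oasl2 and Usp18 were called lower against wild type 1 and higher against wild type 2, a combination seen in 0.426% of all genes fitted both ways. Irf7, Zbp1 and Ifi44 were called lower against each of the wild-type libraries (2.51% of all genes), and no member was called higher against each (6.31% of all genes). Plscr1 was not fitted here, since with 1 wild-type library left it reached the filter in 1 library only.

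**Figure D3:**
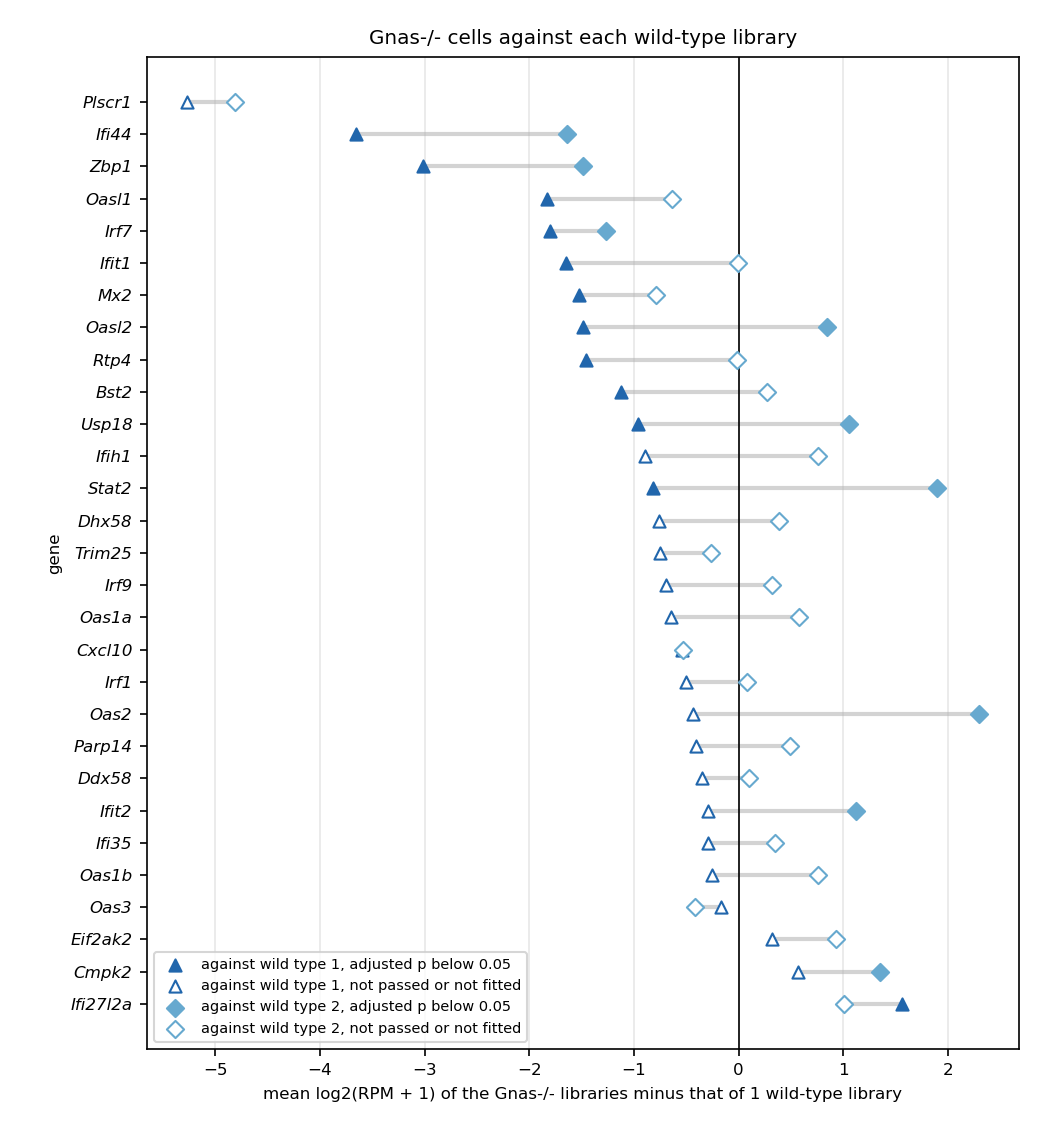
Mean log2(RPM + 1) of the Gnas-/- libraries minus that of wild type 1 (triangles) or of wild type 2 (diamonds) for the 29 tested members, with filled symbols for an adjusted p below 0.05 in the limma fit on those 3 libraries. For 15 of the 29 genes the triangle lies left of 0 and the diamond right of 0, which holds for 19.9% of all tested genes.

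Among all 31 measured members, both Gnas-/- libraries lay between the wild-type libraries for 16, below both for 9 and above both for 3, with 3 mixed. Over the 29 tested members, 15 lay between (20.2% of all tested genes), 8 below (21.1%) and 3 above (30.6%).

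The transcription factor genes showed both patterns. Irf7 encodes the factor that amplifies production of type I interferon, and it lies on chromosome 7 at 141262706 to 141266481 (minus strand, GRCm38). It stood at 14.3 and 20.4 RPM in the Gnas-/- libraries, against 61.9 and 42.5 RPM in the wild-type libraries. The groups did not overlap, and the log2 fold change was -1.53 (SE 0.32, limma adjusted p = 0.0948), which did not pass. Against single libraries its log2 difference was -1.80 from wild type 1 (limma adjusted p = 0.00319) and -1.27 from wild type 2 (limma adjusted p = 0.0179).

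Stat2, whose product joins IRF9 on the response element, spread widely between the wild-type libraries. It stood at 85.7 and 91.6 RPM in the Gnas-/- libraries, against 157 RPM in wild type 1 and 23.1 RPM in wild type 2. The means were 88.6 ± 4.18 RPM in Gnas-/- cells and 90.1 ± 94.8 RPM in wild-type cells (SD, n = 2 each). Its log2 difference was -0.82 from wild type 1 (limma adjusted p = 0.022) and 1.90 from wild type 2 (limma adjusted p = 0.000658). Irf9 stood at 40.8 and 49.4 RPM in Gnas-/- cells, against 73.4 and 35.7 RPM in wild-type cells. Irf1, a factor induced most strongly by interferon gamma, stood at 55.3 and 52.5 RPM in Gnas-/- cells, against 76.7 and 50.8 RPM in wild-type cells. Neither passed in any of the fits named above.

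Of 6 sensor genes and their regulators, 0 rose, 0 fell and 6 did not pass against both wild-type libraries. Zbp1 encodes a sensor of left-handed nucleic acid that can start necroptosis, and lies on chromosome 2 at 173206612 to 173218923 (minus strand). It stood at 4.12 and 4.58 RPM in Gnas-/- cells, against 42.2 and 14.02 RPM in wild-type cells. The ratio of means was 6.45-fold in favour of wild type, with a log2 fold change of -2.25 (SE 0.55, limma adjusted p = 0.13). It was lower against wild type 1 (-3.01, limma adjusted p = 0.00042) and against wild type 2 (-1.49, limma adjusted p = 0.0162).

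The cytoplasmic RNA sensors lay between the wild-type values. Ddx58, the gene of RIG-I, stood at 13.5 and 14.95 RPM in Gnas-/- cells, against 18.3 and 13.2 RPM in wild-type cells. Ifih1, the gene of MDA5, stood at 14.2 and 11.7 RPM, against 24.8 and 7.19 RPM. Dhx58, the gene of their relative LGP2, stood at 7.68 and 9.29 RPM in Gnas-/- cells, against 15.01 and 6.23 RPM in wild-type cells. For all 3, wild type 1 was the highest library and wild type 2 the lowest. Trim25, which encodes a ubiquitin ligase that assists RIG-I, was at 18.8 and 21.9 RPM in Gnas-/- cells, against 34.9 and 24.5 RPM in wild-type cells. Eif2ak2 encodes PKR, the kinase that stops translation when it binds double-stranded RNA. It stood at 18.8 and 13.0 RPM in Gnas-/- cells, against 12.4 and 7.71 RPM in wild-type cells. Eif2ak2 was thus 1 of the 3 members with both Gnas-/- libraries on top, without passing (log2 fold change 0.63, limma adjusted p = 0.445).

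The oligoadenylate synthetases make a messenger that sets off the breakdown of RNA, and 0 of 6 passed against both wild-type libraries. Oas2 stood at 29.4 and 30.8 RPM in Gnas-/- cells, against 41.0 RPM in wild type 1 and 5.34 RPM in wild type 2. It was called higher against wild type 2 (log2 difference 2.30, limma adjusted p = 0.000846) and did not pass against wild type 1 (-0.43, limma adjusted p = 0.255). Oasl2, which encodes a relative of these enzymes, stood at 66.5 and 83.8 RPM in Gnas-/- cells, against 211 and 41.2 RPM in wild-type cells. The log2 difference was -1.49 from wild type 1 (limma adjusted p = 0.00216) and 0.84 from wild type 2 (limma adjusted p = 0.0337).

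The other synthetase genes had few reads. Oas1a stood at 4.47 and 7.48 RPM in Gnas-/- cells, against 9.65 and 3.56 RPM in wild-type cells. Oas1b, which carries a truncating mutation in most laboratory strains, stood at 2.75 and 2.15 RPM, against 3.09 and 1.04 RPM. Both genes had their Gnas-/- values inside the wild-type range, as Oas2 and Oasl2 did. Oas3, the largest synthetase, stood at 1.66 and 3.70 RPM in Gnas-/- cells, against 2.98 and 3.71 RPM in wild-type cells. Oasl1, a mouse inhibitor of Irf7 translation, stood at 0.687 and 1.01 RPM in Gnas-/- cells, against 5.53 and 1.85 RPM in wild-type cells. Its groups did not overlap, and it did not pass against both wild-type libraries (log2 fold change -1.23, limma adjusted p = 0.294). Against wild type 1 alone it was lower (limma adjusted p = 0.0195), and against wild type 2 alone it did not pass (limma adjusted p = 0.336).

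Ifit1 and Ifit2 lie close together on chromosome 19 and encode proteins that bind viral RNA and hinder its translation. Ifit1 stood at 44.4 and 33.3 RPM in Gnas-/- cells, against 123 RPM in wild type 1 and 38.6 RPM in wild type 2. Its log2 difference was -1.65 from wild type 1 (limma adjusted p = 0.00218) and -0.004 from wild type 2 (SE 0.256, limma adjusted p = 0.993). Ifit2 stood at 19.8 and 13.9 RPM in Gnas-/- cells, against 20.6 and 7.12 RPM in wild-type cells. For Ifit1 the Gnas-/- values lay on either side of the wild type 2 value, and for Ifit2 both lay between the wild-type values. Usp18, the protease that removes ISG15 and dampens the interferon receptor, stood at 18.3 and 18.0 RPM, against 36.2 and 8.23 RPM. Its log2 difference was -0.96 from wild type 1 (limma adjusted p = 0.0332) and 1.05 from wild type 2 (limma adjusted p = 0.0315).

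Plscr1 gave the only difference that limma called against both wild-type libraries, among the membrane effectors and among all members. It encodes an interferon-induced phospholipid scramblase and lies on chromosome 9 at 92249750 to 92272278 (plus strand). No read was seen in either Gnas-/- library, against 37.7 and 27.0 RPM in the wild-type libraries (32.3 ± 7.54, SD, n = 2). The wild-type values stand for 1059 reads, so the level was at least 357-fold lower in Gnas-/- cells when 0 is set to 3 reads over the group. The log2 fold change was -5.04 (SE 0.35, limma adjusted p = 0.0176, and 0.00848 to 0.53 over the other limma settings that tested it). It passed the filter through its wild-type values alone, and limma no longer called it without Gnas-/- 1 (adjusted p = 0.483) or without Gnas-/- 2 (adjusted p = 0.53). With whole reads the adjusted p was 0.0311 by edgeR and 3.22e-12 by DESeq2. An amplicon reports 1 short target, and transcripts without that target give no reads.

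The scramblase genes Plscr2 and Plscr4 on the same chromosome kept their reads, and they were chosen after their values were seen. Plscr2 stood at 19.9 and 22.9 RPM in Gnas-/- cells, against 31.8 and 10.3 RPM in wild-type cells. Plscr4 stood at 17.4 and 13.5 RPM in Gnas-/- cells, against 30.7 and 17.7 RPM in wild-type cells. Neither passed (limma adjusted p = 0.875 and 0.467). The zero of Plscr1 was not shared by these neighbours, and no other neighbour is given here.

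**Figure D4:**
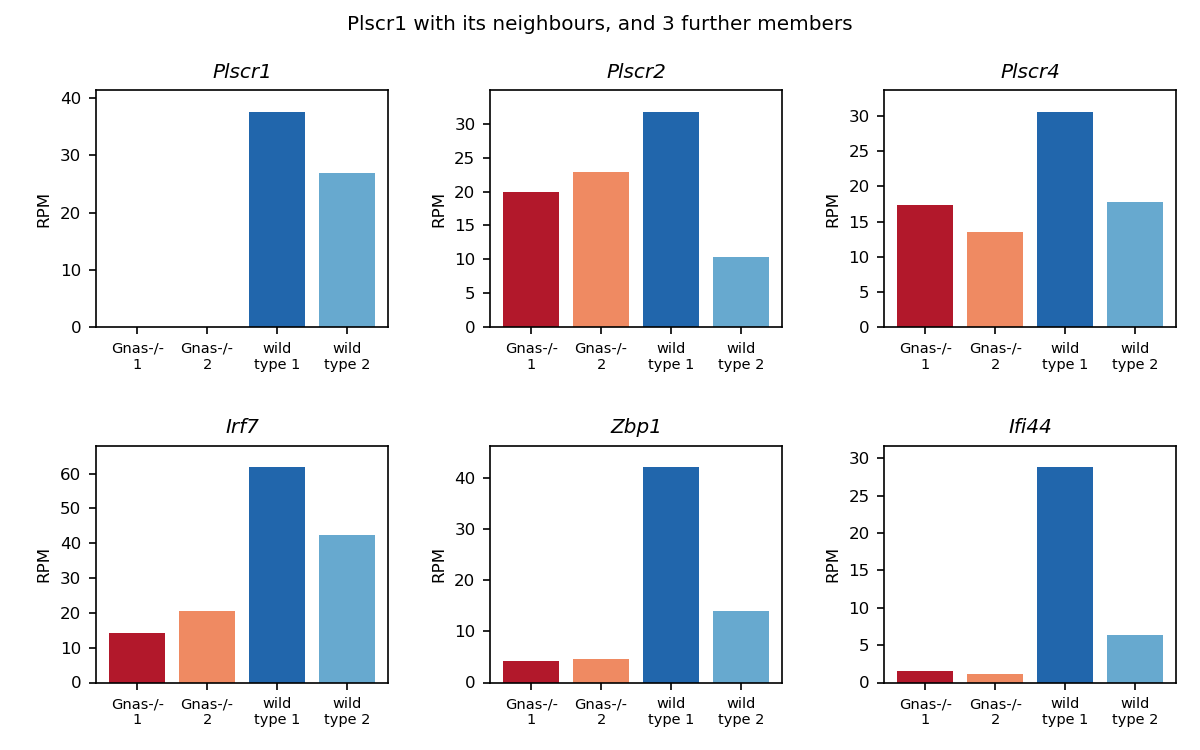
RPM in each library for Plscr1, for its chromosomal neighbours Plscr2 and Plscr4, and for Irf7, Zbp1 and Ifi44, with 1 bar per library and axes that start at 0. Plscr1 has no bar in either Gnas-/- library, its neighbours have reads in all 4, and Irf7, Zbp1 and Ifi44 have both Gnas-/- bars below both wild-type bars.

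Bst2 encodes tetherin, which holds budding virus particles at the cell surface. It stood at 131 and 171 RPM in Gnas-/- cells, against 327 RPM in wild type 1 and 124 RPM in wild type 2. Against wild type 1 it was lower (log2 difference -1.12, limma adjusted p = 0.00919), and against wild type 2 it did not pass (0.27, limma adjusted p = 0.409). Mx2, a dynamin-like antiviral gene, stood at 2.86 and 3.23 RPM in Gnas-/- cells, against 10.6 and 6.01 RPM in wild-type cells, without overlap and without passing (log2 fold change -1.16, limma adjusted p = 0.224). It was lower against wild type 1 alone (limma adjusted p = 0.0208) and did not pass against wild type 2 alone (limma adjusted p = 0.159). Mx1, whose allele is defective in C57BL/6 mice, had no read in the Gnas-/- libraries, against 8 reads in wild type 1 and none in wild type 2. It was not tested.

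Rsad2 and Cmpk2 are neighbours on chromosome 12 that are induced together by interferon and act on nucleotides, and their values lay on opposite sides here. Rsad2, the gene of viperin, stood at 0.573 and 0.269 RPM in Gnas-/- cells, against 5.20 and 0.964 RPM in wild-type cells, and was below the filter for testing. Cmpk2 stood at 16.2 and 16.7 RPM in Gnas-/- cells, against 10.8 and 5.86 RPM in wild-type cells. Both Gnas-/- libraries were thus lowest for Rsad2 and highest for Cmpk2. For Rsad2 this rests on 10 and 4 reads in the Gnas-/- libraries, against 96 in wild type 1 and 13 in wild type 2. Cmpk2 did not pass against both wild-type libraries (log2 fold change 0.96, SE 0.37, limma adjusted p = 0.275), and it was higher against wild type 2 alone (1.35, limma adjusted p = 0.0145).

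The remaining members were the chemokine gene Cxcl10 and 5 genes of other induced proteins. Cxcl10, which attracts activated T cells, stood at 2.63 and 1.48 RPM in Gnas-/- cells, against 3.36 and 3.34 RPM in wild-type cells. The wild-type values were almost equal, unlike those of most members (log2 fold change -0.53, limma adjusted p = 0.512). Ifi44, an interferon-induced gene on chromosome 3 at 151730922 to 151749960 (minus strand), stood at 1.60 and 1.15 RPM in Gnas-/- cells, against 28.8 and 6.38 RPM in wild-type cells. The ratio of means was 12.8-fold in favour of wild type (log2 fold change -2.65, SE 0.70, limma adjusted p = 0.15). It was lower than wild type 1 (-3.66, limma adjusted p = 0.000378) and than wild type 2 (-1.64, limma adjusted p = 0.0226).

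Ifi27l2a, an interferon-induced gene of the Ifi27 family, was the only tested member beside Oas3 with less in wild type 1 than in wild type 2. It stood at 14.1 and 19.6 RPM in Gnas-/- cells, against 4.99 and 7.79 RPM in wild-type cells, a 2.64-fold ratio of means (log2 fold change 1.28, SE 0.36, limma adjusted p = 0.168). It was higher against wild type 1 (1.56, limma adjusted p = 0.0124) and did not pass against wild type 2 (1.00, limma adjusted p = 0.0564). Rtp4, which encodes a receptor chaperone with antiviral activity, resembled Ifit1, with 28.0 and 33.1 RPM in Gnas-/- cells, against 85.7 and 30.8 RPM in wild-type cells. It too was lower against wild type 1 alone (limma adjusted p = 0.00319) and did not pass against wild type 2 alone (limma adjusted p = 0.974). Ifi35 (51.9 and 57.5 RPM in Gnas-/- cells, against 67.03 and 42.8 RPM in wild-type cells) lay inside the wild-type range. Parp14, an ADP-ribosyltransferase gene, did too, at 9.22 and 9.97 RPM in Gnas-/- cells, against 13.1 and 6.53 RPM in wild-type cells.

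The split between the wild-type libraries was not seen in the median of receptor and JAK-STAT genes. The median of wild type 1 minus wild type 2 was -0.04 for interferons and receptors, 0.01 for JAK-STAT genes and 0.48 for genes of nucleic acid sensing. Of 6 tested interferon and receptor genes 0 rose, 0 fell and 6 did not pass, with a median log2 fold change of -0.11. Ifnb1, the gene of interferon beta, had no read in the Gnas-/- libraries, against none in wild type 1 and 8 reads in wild type 2, although wild type 2 had the lower members. Of the measured interferon ligand genes, Ifnk alone reached the filter, at 0.687 and 1.82 RPM in Gnas-/- cells, against 1.25 and 1.33 RPM in wild-type cells. Of the receptor genes, Ifnar1 stood at 89.7 and 80.9 RPM in Gnas-/- cells, against 99.0 and 74.3 RPM in wild-type cells. Ifnar2 stood at 29.0 and 33.3 RPM in Gnas-/- cells, against 48.5 and 38.3 RPM in wild-type cells, without overlap. Ifngr1 had 103 and 84.5 RPM in Gnas-/- cells, against 90.6 and 92.7 RPM in wild-type cells. Ifngr2 had 113 and 120 RPM in Gnas-/- cells, against 119 and 139 RPM in wild-type cells. Il10rb, a subunit shared by the receptors of interferon lambda and interleukin 10, stood at 134 and 137 RPM in Gnas-/- cells, against 142 and 159 RPM in wild-type cells. The adjusted p of these 5 receptor genes was 0.406 or more (limma). Ifnlr1, the other subunit of the interferon lambda receptor, did not reach the filter, at 0.286 and 0.269 RPM in Gnas-/- cells, against 1.19 and 0.89 RPM in wild-type cells.

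Of 11 tested genes of JAK-STAT signalling and its inhibitors, 0 rose, 0 fell and 11 did not pass by limma. Jak1, the kinase shared by interferon receptors, came nearest. It stood at 208 and 210 RPM in Gnas-/- cells, against 378 and 412 RPM in wild-type cells (log2 fold change -0.91, SE 0.20, limma adjusted p = 0.103). Its log2 difference was -0.85 from wild type 1 and -0.98 from wild type 2. With whole reads DESeq2 called Jak1 lower (adjusted p = 0.00256) and edgeR did not (adjusted p = 0.131). Pias1, which encodes an inhibitor of cytokine signalling, had an adjusted p of 0.166 by limma (log2 fold change 0.92), and Pias3 one of 0.399. Tyk2 stood at 28.2 and 37.2 RPM in Gnas-/- cells, against 33.8 and 19.4 RPM in wild-type cells.

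Of 15 tested genes of nucleic acid sensing upstream of interferon, 0 rose, 0 fell and 15 did not pass, with a median of 0.07. Tbk1, the kinase that activates IRF3, stood at 127 and 108 RPM in Gnas-/- cells, against 53.2 and 68.6 RPM in wild-type cells (log2 fold change 0.94, limma adjusted p = 0.134). Myd88, an adaptor of Toll-like receptors, stood at 111 and 107 RPM in Gnas-/- cells, against 69.2 and 39.7 RPM in wild-type cells (log2 fold change 1.05, limma adjusted p = 0.185). For both genes all Gnas-/- values exceeded all wild-type values. The log2 difference of Tbk1 was 1.12 from wild type 1 and 0.76 from wild type 2, and that of Myd88 was 0.65 and 1.44. Irf5 came next (log2 fold change -0.88, limma adjusted p = 0.375), and Irf3 was level at 35.1 and 33.001 RPM in Gnas-/- cells, against 36.0 and 28.7 RPM in wild-type cells.

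A longer list of 74 further interferon-induced genes, which shares no gene with the members, had 64 measured and 51 tested. Of the 51, 0 rose, 1 fell and 50 did not pass by limma, with a median log2 fold change of 0.02. The 1 that fell was Slfn2, a Schlafen family gene, at 24.3 and 23.3 RPM in Gnas-/- cells, against 135 and 131 RPM in wild-type cells (log2 fold change -2.44, SE 0.20, limma adjusted p = 0.0196). Like Plscr1, it was not called by limma when either Gnas-/- library was left out. DESeq2 called Slfn2, Apol9b and Isg20 lower. The split between the wild-type libraries recurred on this list. Wild type 1 exceeded wild type 2 for 45 of the 51, with a median log2 difference of 0.92 between them. The median of Gnas-/- cells was -0.49 from wild type 1 and 0.51 from wild type 2.

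Among the tested genes of this list the widest splits were in Ifi203, Ifi204, Ifi205 and Trim30a, named, like Irf8, after their values were seen. Irf8, which did not reach the filter, ran the other way, with no read in the Gnas-/- libraries, against none in wild type 1 and 22.2 RPM in wild type 2. The summed macrophage markers were also highest in wild type 2, and a link between them and Irf8 was not tested. Ifi203, a gene of the DNA-binding PYHIN family, stood at 8.02 and 10.4 RPM in Gnas-/- cells, against 40.8 RPM in wild type 1 and 1.26 RPM in wild type 2. Its relative Ifi204 had 0.859 and 2.29 RPM in Gnas-/- cells, against 18.7 RPM in wild type 1 and no read in wild type 2. Trim30a stood at 24.3 and 18.0 RPM in Gnas-/- cells, against 47.6 and 3.63 RPM in wild-type cells. The Ifi200 genes are close copies of each other, so reads could be split between them.

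Markers of other cell types also differed between the wild-type libraries. The sum of the 18 macrophage markers was highest in wild type 2, where most members were lowest, and all 10 that were tested were lower in wild type 1 than in wild type 2. Lyz2 stood at 20.8 and 10.4 RPM in Gnas-/- cells, against 33.9 RPM in wild type 1 and 822 RPM in wild type 2. In Gnas-/- cells 7 and 9 of the 18 were at 0, among them Ptprc, Fcer1g and Adgre1 in both libraries. Of 11 measured markers of lymphocytes and plasmacytoid dendritic cells, 9 were at 0 in each library, Siglech and Cd3e in all 4. The 11 summed to 170 and 101 RPM in Gnas-/- cells, against 227 RPM in wild type 1 and 152 RPM in wild type 2. This sum came almost entirely from Tcf4, which stromal cells also express. The 8 endothelial markers summed to 18.7 and 36.8 RPM in Gnas-/- cells, against 10.8 RPM in wild type 1 and 88.8 RPM in wild type 2. The part of these cells in the differences was not tested. In bulk RNA, fewer cells of a type and less RNA per cell cannot be told apart.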

How the data were processed

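Messenger RNA was read with an Ion AmpliSeq transcriptome panel for mouse, per the labels' protocols. The deposited table gives RPM, an amplicon's reads relative to the library total, as the authors computed it. Aligner, counter and genome build: not given in the sources used here. Symbols were taken from amplicon names, since 27 rows held a date in place of the gene name. The step between low values gave whole reads (100% of non-zero values within 0.01 read). The members and lists were chosen with earlier results of these data known.

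The main fit was limma 3.58.1 (R 4.3.3, eBayes with trend) on log2(RPM + 1) for genes that reached 1 RPM in 2 or more libraries. P-values are two-sided and adjusted by Benjamini-Hochberg over all these genes, with a threshold of 0.05. A fold change on this scale understates that of low genes. The fit was also run on simulated counts drawn for each gene on its own, and the outcome is not given here. Those counts hold no split shared by many genes, such as that between the wild-type libraries. Tried beside it were pseudocounts of 0.5 and 5, filters at 0 and 5 RPM, TMM, median-of-ratios and quantile scaling, a fit without trend, one with a replicate block, leaving out each library, and whole-read tests with edgeR 4.0.16 and DESeq2 1.42.0. All members are named. Of each pathway list, genes that passed are named, otherwise the 3 with the smallest p, with Ifnar1, Ifnar2, Ifngr1, Ifngr2, Jak1, Tyk2 and Irf3. Gene positions come from GENCODE M21 (GRCm38) and promoters from RefSeq (GRCm38.p6). The authors' build may differ, and no coordinate of theirs was used. Figures used matplotlib 3.10.9.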

Additional observations from a re-analysis of the deposited data

How the results depend on the processing

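Over all genes 268 were called by limma, against 74 with no filter, 424 with a replicate block, 93 by edgeR and 1091 by DESeq2, and 0 to 2556 when a library was left out. The called members numbered 1, against 4 by DESeq2 and 0 to 12 when a library was left out, and the median of the members then ran from -0.726 to 0.334. Of all calls 201 were higher and 67 lower, against 598 and 493 by DESeq2. Numbers 1 and 2 mark no shared animal or batch in the labels, the differences between libraries 1 and 2 of each group correlated at 0.164 across genes, and the block changed no member's call. Quantile scaling put the median of all genes at -0.033, against 0.082 without it.

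Signs turned only in members that did not pass against both wild-type libraries. Usp18 turned to -0.01 with a pseudocount of 5. With TMM scaling the values were -0.01 for Usp18, -0.03 for Ifi35 and -0.01 for Parp14, with median-of-ratios scaling -0.03, -0.06 and -0.03, and with quantile scaling -0.08, -0.03 and -0.13, beside -0.04 for Oas1b. EdgeR gave -0.06 for Stat2, -0.33 for Usp18, -0.07 for Ifi35 and -0.09 for Parp14, and DESeq2 -0.06, -0.34, -0.08 and -0.10. The cause was not tested. With 1 library left out, values ran from -0.50 to 0.08 for Irf1, -0.70 to 0.32 for Irf9, -0.82 to 1.90 for Stat2, -0.35 to 0.10 for Ddx58, -0.89 to 0.76 for Ifih1, -0.76 to 0.39 for Dhx58, -0.65 to 0.58 for Oas1a, -0.25 to 0.75 for Oas1b, -0.43 to 2.30 for Oas2, -0.70 to 0.12 for Oas3, -1.49 to 0.84 for Oasl2, -0.29 to 1.12 for Ifit2, -0.96 to 1.05 for Usp18, -1.12 to 0.27 for Bst2, -0.29 to 0.35 for Ifi35 and -0.41 to 0.49 for Parp14. In 15 of these 16 genes the lowest value came without wild type 2 and the highest without wild type 1.
Read depth limits Mx1, Rsad2, Oasl1 and the interferon ligand genes, which lie near the value of a few reads.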
